A study of Mus musculus with 8 samples.

Results

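The genes described here are 10 receptors for the growth factors and cytokines that act on myeloid progenitors: Flt3, Kit, Csf1r, Csf3r, Csf2ra, Il3ra, Il5ra, Csf2rb, Csf2rb2 and Il6ra. They were found as all non-control probes whose transcript accession belongs to one of these genes. All 10 were on the array, with 15 probes in all, and they stand among 20284 named genes. RNA was measured in granulocyte progenitors (GPs), the bone marrow precursors of granulocytes, sorted from mice by whether they carried the Flt3 protein on the cell surface (Flt3+) or not (Flt3-). There were 4 groups of 2 arrays, 1 array from each of 2 experiments: wild-type Flt3+ GPs, wild-type Flt3- GPs, Irf8KO Flt3+ GPs and Irf8KO Flt3- GPs, where Irf8KO marks mice that lack Irf8, which encodes a transcription factor of myeloid and lymphoid cells. The cells were untreated primary cells. The sources used here do not give how Irf8 was disrupted, the age of the mice, the number of mice behind a sample or the other markers of the GP gate, so p-values here measure only how much these samples vary, and that variation may be technical.

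Flt3, Kit and Csf1r are receptor tyrosine kinases, which pair up when their ligand binds and phosphorylate themselves and other proteins. Flt3 is known from early multipotent, lymphoid and dendritic progenitors, Kit from stem and progenitor cells and mast cells, and Csf1r from monocytes and macrophages. The cytokine receptors have no kinase of their own and signal through JAK kinases: Csf3r, the G-CSF receptor of neutrophils, works as a pair of like chains, whereas Csf2ra, Il3ra and Il5ra are the ligand-specific chains for GM-CSF, IL-3 and IL-5 and signal with the common beta chain Csf2rb. In the mouse a neighbouring gene, Csf2rb2, encodes a further beta chain that can serve the IL-3 receptor in its place, and Il6ra, the IL-6 receptor, signals through the shared chain Il6st (gp130).

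Levels are given as log2 of the spot intensity relative to the 75th percentile of the same array, so a level can be compared between groups for a probe but not between probes. Between 54.9 and 60.1% of the spots of an array lay well above background and none was saturated. All 15 probes of the 10 genes were well above background on both arrays of every group. The pair of arrays within a group had r = 0.9958 to 0.9973 across genes, and 2 arrays per group limit the precision. Calls were made at an adjusted p below 0.05 in limma, with Benjamini-Hochberg adjustment over 14110 genes. All arrays lay on 1 slide, each group in its own positions, so group and slide position cannot be told apart. The Irf8 probe read higher on the arrays labelled Irf8KO (6.67 and 6.67 in Flt3+, 5.64 and 5.53 in Flt3-) than on wild-type arrays (5.80 and 5.87, 4.85 and 4.88). The sources used here do not say where the disrupted part of the gene lies relative to this probe, so the probe does not check the labels, and directions between genotypes rest on the labels alone. All 9 markers of granulocyte progenitors, among them Elane and Mpo, were well above background on both arrays of each group. Their summed linear level was 868 to 948 in wild-type Flt3+, 2297 to 2436 in wild-type Flt3-, 1360 to 1362 in Flt3+ labelled Irf8KO and 2612 to 2852 in Flt3- labelled Irf8KO, in multiples of the 75th percentile of the array. Mpo alone made up 49.5 to 53.4% of that sum in wild-type Flt3+ and 50.1 to 50.3% in Flt3+ labelled Irf8KO. Of the 9 markers, 8 were called lower and 1 higher in Flt3+ than in Flt3- GPs of each genotype. The median differences were -2.78 in wild type and -1.775 in cells labelled Irf8KO, where 39.1% and 23.6% of all genes were called lower.

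**Figure D1:**
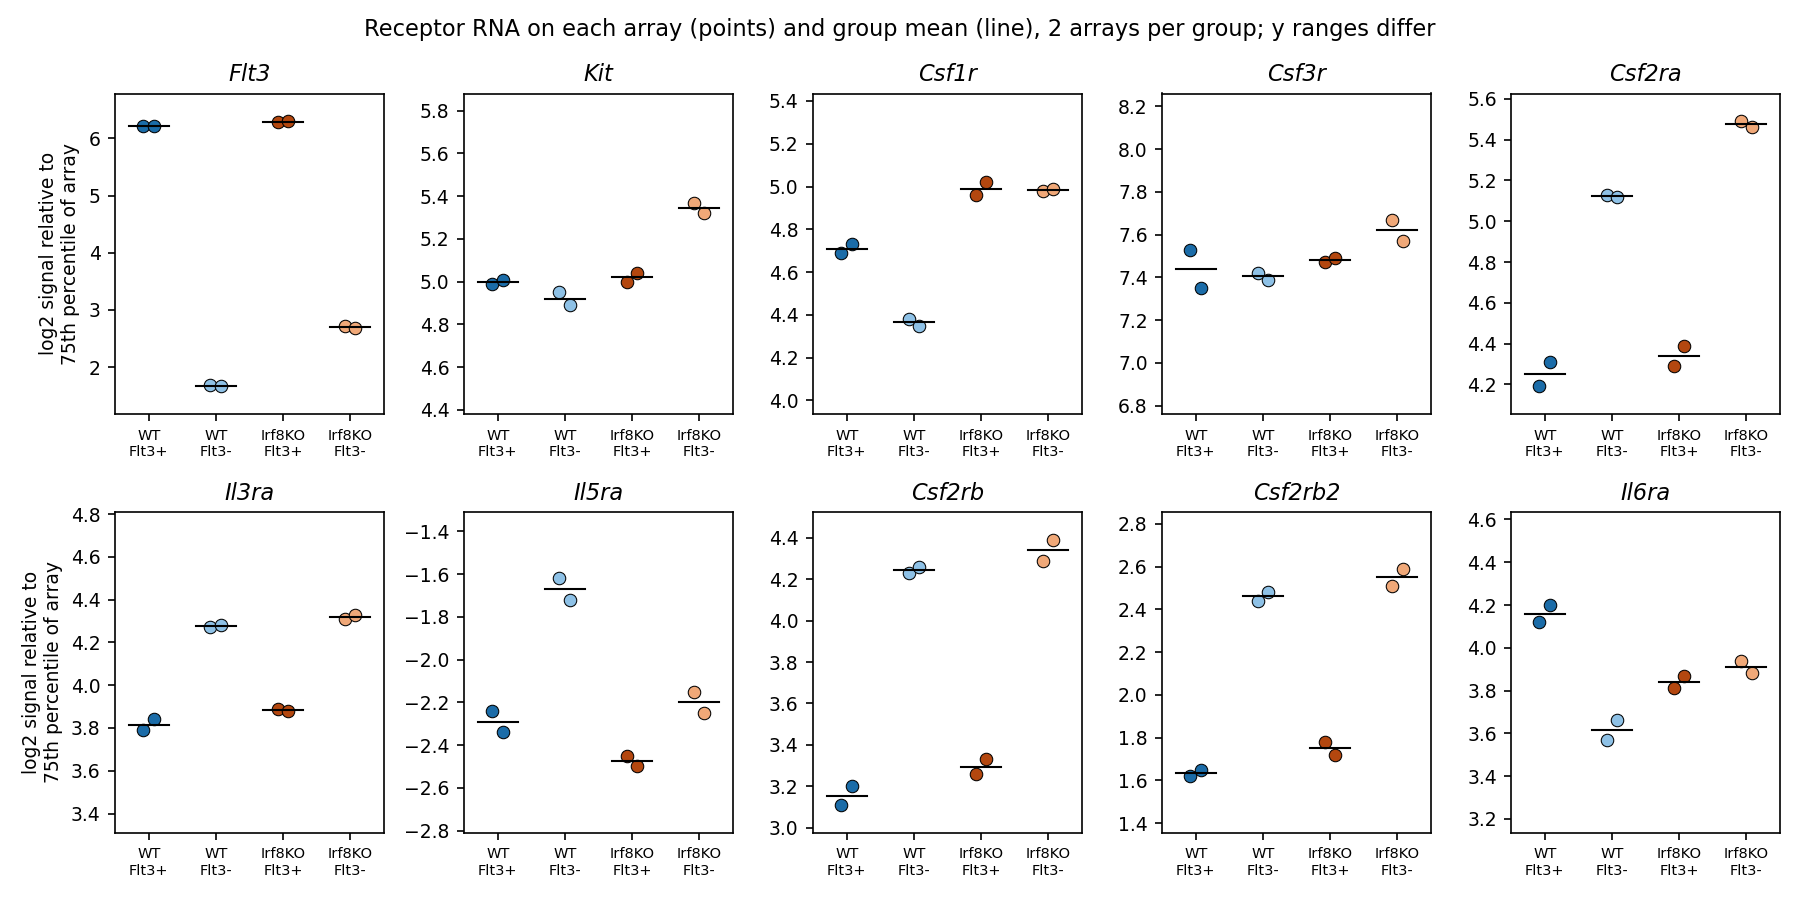
Level of each of the 10 genes on each of the 8 arrays, on the log2 scale with the array's 75th percentile at 0 (vertical axis, scaled per gene), in the 4 groups; points are arrays and bars are means of 2 arrays. Flt3 parts the sorted populations, Csf2ra, Il3ra, Csf2rb and Csf2rb2 lie lower in both Flt3+ groups than in both Flt3- groups, and Kit stands highest in Flt3- GPs labelled Irf8KO.

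The first question was how the receptors differ between Flt3+ and Flt3- GPs. In wild-type cells 3 of the 10 receptors were higher in Flt3+ GPs (Flt3, Il6ra, Csf1r), 5 were lower (Csf2rb, Csf2ra, Csf2rb2, Il5ra, Il3ra) and 2 were not called (Kit, Csf3r). Of all genes tested 61.8% were called in this comparison, 22.6% as higher and 39.1% as lower, so a call here is common. The median difference of the 10 genes was -0.21 and that of all genes -0.11. At 2-fold or more, 1 receptor was higher (Flt3) and 1 lower (Csf2rb), with 13% of all genes called at that size. In cells labelled Irf8KO 1 receptor was higher in Flt3+ GPs (Flt3), 6 were lower (Csf2ra, Csf2rb, Csf2rb2, Il3ra, Kit, Il5ra) and 3 were not called (Csf1r, Csf3r, Il6ra). There 45.7% of all genes were called, 22% as higher and 23.6% as lower, and the medians were -0.30 for the 10 genes and -0.03 for all. Flt3 was higher and Csf2ra and Csf2rb lower by at least 2-fold, where 10.4% of all genes were called. In bulk RNA of a sorted population, fewer cells that make a transcript and less of it per cell cannot be told apart.

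Flt3 itself describes the sort, since its protein was the sort marker. In wild type its level was 6.21 and 6.21 in the sorted Flt3+ cells against 1.69 and 1.66 in the Flt3- cells. On arrays labelled Irf8KO it was 6.29 and 6.30 in Flt3+ and 2.71 and 2.68 in Flt3-. The Flt3 transcript thus followed the surface protein in both genotypes, by 23.2-fold in wild type and 12.1-fold in cells labelled Irf8KO. A second Flt3 probe gave 2.06 and 2.09 against -1.86 and -1.78 in wild type, and 2.20 and 2.15 against -1.19 and -1.02 in cells labelled Irf8KO. Both Flt3 probes were well above background on all Flt3- arrays as well.

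The 5 chains of the GM-CSF, IL-3 and IL-5 receptors were all lower in Flt3+ than in Flt3- GPs, in both genotypes. For the 4 of them that have an entry in the RefSeq promoter table (GRCm38.p6), the 250 bases before the transcription start are shown because these genes moved together, and that of Flt3 is shown because it moved the other way. Sequences run 5′ to 3′ on the strand of the gene and capitals mark matches to the motifs searched.
Csf2ra, chr19:61228419-61228668, minus strand: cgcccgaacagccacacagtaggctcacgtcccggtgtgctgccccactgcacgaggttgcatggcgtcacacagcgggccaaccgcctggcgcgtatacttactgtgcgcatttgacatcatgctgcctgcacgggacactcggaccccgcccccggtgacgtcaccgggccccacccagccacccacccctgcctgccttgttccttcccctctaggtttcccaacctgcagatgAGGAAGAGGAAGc
Il3ra, chr14:14346245-14346494, plus strand: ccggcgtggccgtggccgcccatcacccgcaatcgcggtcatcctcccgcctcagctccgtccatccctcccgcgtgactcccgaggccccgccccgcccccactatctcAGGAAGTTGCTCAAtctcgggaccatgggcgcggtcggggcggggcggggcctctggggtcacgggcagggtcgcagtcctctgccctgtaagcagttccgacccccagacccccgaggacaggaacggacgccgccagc
Il5ra, chr6:106749038-106749287, minus strand: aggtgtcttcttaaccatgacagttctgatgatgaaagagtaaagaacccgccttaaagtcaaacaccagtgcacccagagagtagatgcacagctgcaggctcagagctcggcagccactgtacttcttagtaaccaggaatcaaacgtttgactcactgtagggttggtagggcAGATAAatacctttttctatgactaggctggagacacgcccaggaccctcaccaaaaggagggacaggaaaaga
Csf2rb2, chr15:78305722-78305971, minus strand: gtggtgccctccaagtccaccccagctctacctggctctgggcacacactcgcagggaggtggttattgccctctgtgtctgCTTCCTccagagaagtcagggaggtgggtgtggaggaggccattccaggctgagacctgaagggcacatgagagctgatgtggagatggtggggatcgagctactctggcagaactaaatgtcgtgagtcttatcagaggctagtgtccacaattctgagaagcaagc
Flt3, chr5:147400490-147400739, minus strand: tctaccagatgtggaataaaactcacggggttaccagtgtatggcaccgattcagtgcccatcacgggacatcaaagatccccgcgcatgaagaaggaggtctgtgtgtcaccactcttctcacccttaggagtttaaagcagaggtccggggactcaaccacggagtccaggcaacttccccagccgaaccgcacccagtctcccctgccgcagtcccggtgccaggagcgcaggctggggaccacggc
Capitals mark AGGAAG, a core bound by ETS factors such as PU.1, TTNNGCAA, a C/EBP core, and AGATAA, bound by GATA factors, each searched on both strands. Csf2ra holds 2 ETS cores, 13 and 7 bases before the start, and Csf2rb2 holds 1 at 168. Il3ra holds 1 ETS core 140 bases before the start and directly beside it, at 134, a C/EBP core on the opposite strand. Il5ra holds no ETS core but a GATA core 74 bases before the start, and the Flt3 window holds no match. An ETS core was present in the windows of 6 of the 8 receptor genes with an entry and in 29.2% of the windows of 27025 genes. Besides Csf2ra, Il3ra and Csf2rb2, the 6 were Csf3r with 4 cores and Kit and Il6ra with 1 each. Those genes were not called lower in wild-type Flt3+ GPs, so an ETS core was not particular to the chains that were lower there. The C/EBP core was in 1 of 8 (9.55% of all genes) and the GATA core in 2 of 8 (10.3%). The composite IRF-ETS motif (GGAA and, after 2 bases of any kind, GAAA) and the IRF motif of the interferon response (GAAA repeated in the same spacing) were in 0 of 8 and in 2.38% and 3.04% of all, and TGTGGT, a RUNX core, was in 0 of 8 and 14.2%. No match overlapped another, though the composite motif begins with letters of the ETS core. A match describes the letters of the window and shows no binding.

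Csf2rb, the common beta chain, had levels of 3.11 and 3.20 in Flt3+ against 4.23 and 4.26 in Flt3- cells of wild type. In cells labelled Irf8KO it had 3.26 and 3.33 in Flt3+ and 4.29 and 4.39 in Flt3-. Every Flt3+ array lay below every Flt3- array, and Csf2rb fell by 1.09 (SE 0.058, adjusted p = 3.25e-05) in wild type and by 1.04 (adjusted p = 4.97e-05) in cells labelled Irf8KO, about 2.13-fold and 2.06-fold. Csf2rb2, the beta chain for IL-3, followed it, with 1.62 and 1.65 against 2.44 and 2.48 in wild type and 1.78 and 1.72 against 2.51 and 2.59 in cells labelled Irf8KO. Its populations did not overlap either, and the differences were -0.83 (SE 0.049, adjusted p = 4.93e-05) and -0.80 (adjusted p = 7e-05). Each gene had a second probe with the same direction: -0.81 and -0.88 for Csf2rb and -1.14 and -0.92 for Csf2rb2, in wild type and in cells labelled Irf8KO. The genes are near-identical neighbours, so a probe of one can take up transcript of the other and their values are not independent.

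Csf2ra, the GM-CSF-specific chain, had levels of 4.19 and 4.31 in Flt3+ against 5.13 and 5.12 in Flt3- cells of wild type. In cells labelled Irf8KO the levels were 4.29 and 4.39 against 5.49 and 5.46. Flt3+ and Flt3- arrays did not overlap, and Csf2ra fell by 0.88 (SE 0.06, adjusted p = 8.42e-05), or 1.84-fold, in wild type and by 1.14 (adjusted p = 4.17e-05), or 2.20-fold, in cells labelled Irf8KO. Il3ra, the IL-3-specific chain, had 3.79 and 3.84 against 4.27 and 4.28 in wild type and 3.89 and 3.88 against 4.31 and 4.33 in cells labelled Irf8KO. Its differences were smaller, -0.46 (SE 0.039, adjusted p = 0.000188) and -0.44 (adjusted p = 0.000309), again without overlap. Under quantile normalization they were -0.19 (adjusted p = 0.00512) and -0.37 (adjusted p = 0.000491). Il5ra, the IL-5-specific chain of eosinophils and their precursors, had -2.24 and -2.34 against -1.62 and -1.72 in wild type and -2.45 and -2.50 against -2.15 and -2.25 in cells labelled Irf8KO. It was lower in Flt3+, with a difference of -0.62 (SE 0.063, adjusted p = 0.000407) in wild type and -0.28 (adjusted p = 0.0149) in cells labelled Irf8KO, and no arrays overlapped between the populations of a genotype. The call for Il5ra in cells labelled Irf8KO is lost without their Flt3- replicate 1 (-0.23, adjusted p = 0.0723) or their Flt3+ replicate 2 (-0.25, adjusted p = 0.0802).

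Most markers of eosinophils, basophils and mast cells, which carry these receptors, were also lower in Flt3+ GPs. So were 8 of the 9 markers of granulocyte progenitors in both genotypes. Of 9 eosinophil markers 8 were tested, and 7 fell in Flt3+ GPs of each genotype; Alox15 was not well above background in enough arrays to be tested and Ear1 was not above background in Flt3+ GPs labelled Irf8KO. Their summed level was 5.82 to 6.11 in Flt3+ against 24.0 to 24.3 in Flt3- GPs of wild type and 2.33 to 2.41 against 11.8 to 11.8 in cells labelled Irf8KO. The largest share of that sum was 34.2 to 34.6% (Prg2) in wild-type Flt3- and 59 to 61.3% (Siglecf) in Flt3- labelled Irf8KO. Of 9 basophil and mast cell markers 8 were tested, of which 5 fell and 1 rose in wild type and 7 fell in cells labelled Irf8KO; Cma1 was not tested and Ms4a2 was not above background in either Flt3+ group, nor Fcer1a in either group labelled Irf8KO. Their summed level was 13.5 to 14.1 against 130.3 to 130.4 in wild type and 5.85 to 6.14 against 63.1 to 63.1 in cells labelled Irf8KO. Hdc alone made up 52.7 to 53.8% of that sum in wild-type Flt3- and 59.9 to 61.1% in Flt3- labelled Irf8KO. Between genotypes in Flt3- GPs the eosinophil sum and the basophil and mast cell sum were lower on arrays labelled Irf8KO. Of the receptor chains, Il5ra was called lower there, Csf2ra was called higher, and Il3ra, Csf2rb and Csf2rb2 were not called. The part of eosinophils, basophils, mast cells and granulocyte progenitors in the receptor differences was not tested.

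Kit, the receptor for stem cell factor, had levels of 4.99 and 5.01 in Flt3+ and 4.95 and 4.89 in Flt3- GPs of wild type, a difference of 0.08 that was not called (95% interval -0.03 to 0.19, adjusted p = 0.177). In cells labelled Irf8KO it had 5.0 and 5.04 in Flt3+ against 5.37 and 5.32 in Flt3-, and was lower in Flt3+, with a difference of -0.33 (SE 0.044, adjusted p = 0.00188). The 2 Flt3- arrays labelled Irf8KO were the highest of the 8 for Kit. Quantile normalization raised the wild-type difference of Kit to 0.40 (adjusted p = 0.000422), so that call depends on the scaling.

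Csf1r, the receptor for M-CSF, was higher in Flt3+ GPs of wild type, with 4.69 and 4.73 against 4.38 and 4.35, a difference of 0.35 (SE 0.041, adjusted p = 0.000792), which quantile normalization raised to 0.62 (adjusted p = 4.4e-05). In cells labelled Irf8KO both populations lay together, at 4.96 and 5.02 in Flt3+ and 4.98 and 4.99 in Flt3-, and the difference was 0.01 (95% interval -0.09 to 0.11, adjusted p = 0.859). The 3 Csf1r probes did not give the same picture in wild type. A second probe gave 0.32, close to the first, while the remaining one gave -0.05 (adjusted p = 0.576), from 0.90 and 0.79 in Flt3+ and 0.94 and 0.85 in Flt3-. Of 8 monocyte and macrophage markers 6 were tested, and their summed level was 51.5 to 54.1 in Flt3+ and 51.6 to 52.3 in Flt3- GPs of wild type, so the populations overlapped in it. F13a1, a single marker, made up 58.4 to 59.2% of that sum in Flt3+ and 67.4 to 67.8% in Flt3-.

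Il6ra, the IL-6 receptor, was higher in Flt3+ GPs of wild type, with 4.12 and 4.20 against 3.57 and 3.66, a difference of 0.54 (SE 0.056, adjusted p = 0.000417) or 1.46-fold. In cells labelled Irf8KO the levels were 3.81 and 3.87 in Flt3+ and 3.94 and 3.88 in Flt3-, and the difference of -0.07 was not called (95% interval -0.21 to 0.07, adjusted p = 0.357). Il6st, the partner chain of Il6ra, was higher in Flt3+ GPs of both genotypes, by 1.71 (SE 0.061, adjusted p = 8.12e-06) and 1.95 (adjusted p = 6.61e-06). Both chains were thus called higher in wild-type Flt3+ GPs, and in cells labelled Irf8KO Il6st was called and Il6ra was not.

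Csf3r, the G-CSF receptor, had 7.53 and 7.35 in Flt3+ and 7.42 and 7.39 in Flt3- GPs of wild type, and 7.47 and 7.49 against 7.67 and 7.57 in cells labelled Irf8KO. The wild-type populations overlapped, with a difference of 0.03 (95% interval -0.14 to 0.21, adjusted p = 0.727), and the difference in cells labelled Irf8KO, -0.14, was not called (95% interval -0.31 to 0.04, adjusted p = 0.168). Under quantile normalization the wild-type difference of Csf3r was 0.30 (adjusted p = 0.00449). That normalization moved the median of all genes in the wild-type comparison from -0.11 to -0.01 and the share of calls that were higher from 36.6 to 50.5%. Relative to the median of all genes in the main scaling, the wild-type differences were 4.65 for Flt3, 0.66 for Il6ra, 0.46 for Csf1r, 0.19 for Kit and 0.15 for Csf3r. On the same footing they were -0.98 for Csf2rb, -0.76 for Csf2ra, -0.71 for Csf2rb2, -0.51 for Il5ra and -0.35 for Il3ra. Over the 10 genes quantile normalization added between -0.07 and 0.32 to the wild-type difference, and the 5 chains of the GM-CSF, IL-3 and IL-5 receptors were still called lower.

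**Figure D2:**
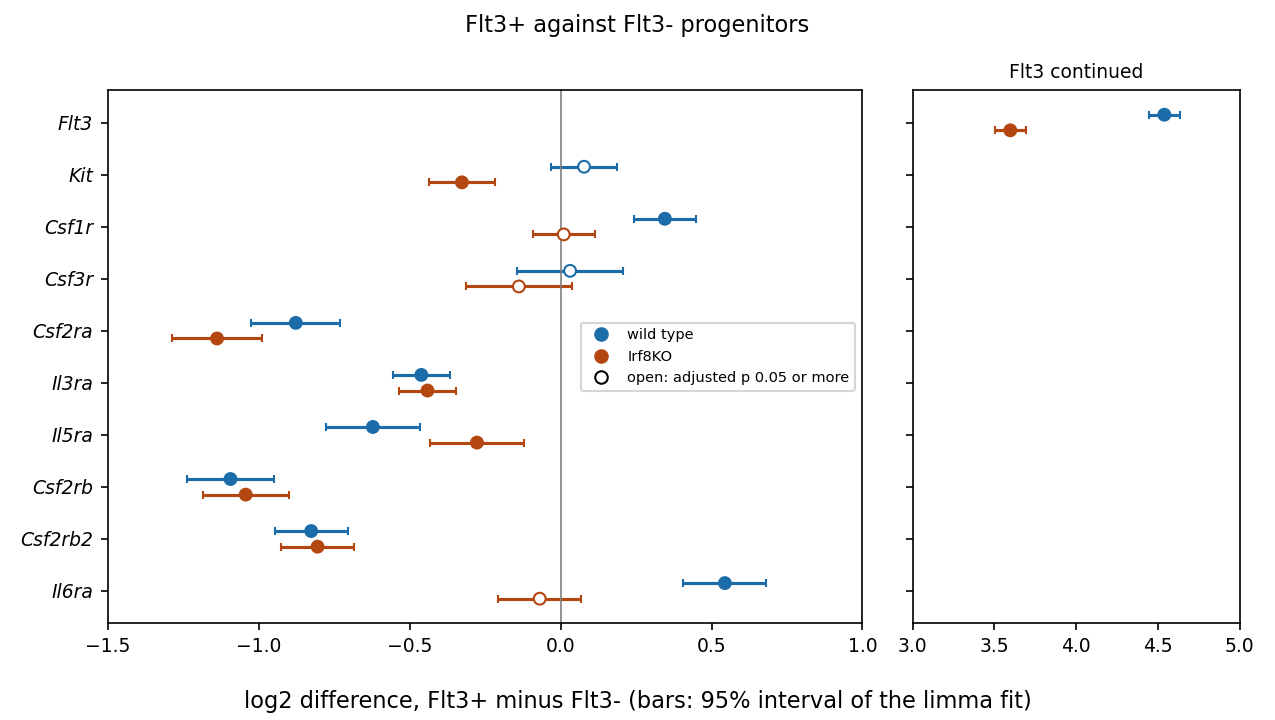
Difference in log2 level between Flt3+ and Flt3- GPs for each receptor gene (horizontal axis, positive where Flt3+ is higher; Flt3 continues on the right panel) in wild type and in cells labelled Irf8KO, with the 95% interval of the limma fit over 2 arrays per group; open points were not called. The points of Csf2ra, Il3ra, Il5ra, Csf2rb and Csf2rb2 lie below 0 in both genotypes, while Kit, Csf1r and Il6ra are called in 1 genotype only.

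**Figure D3:**
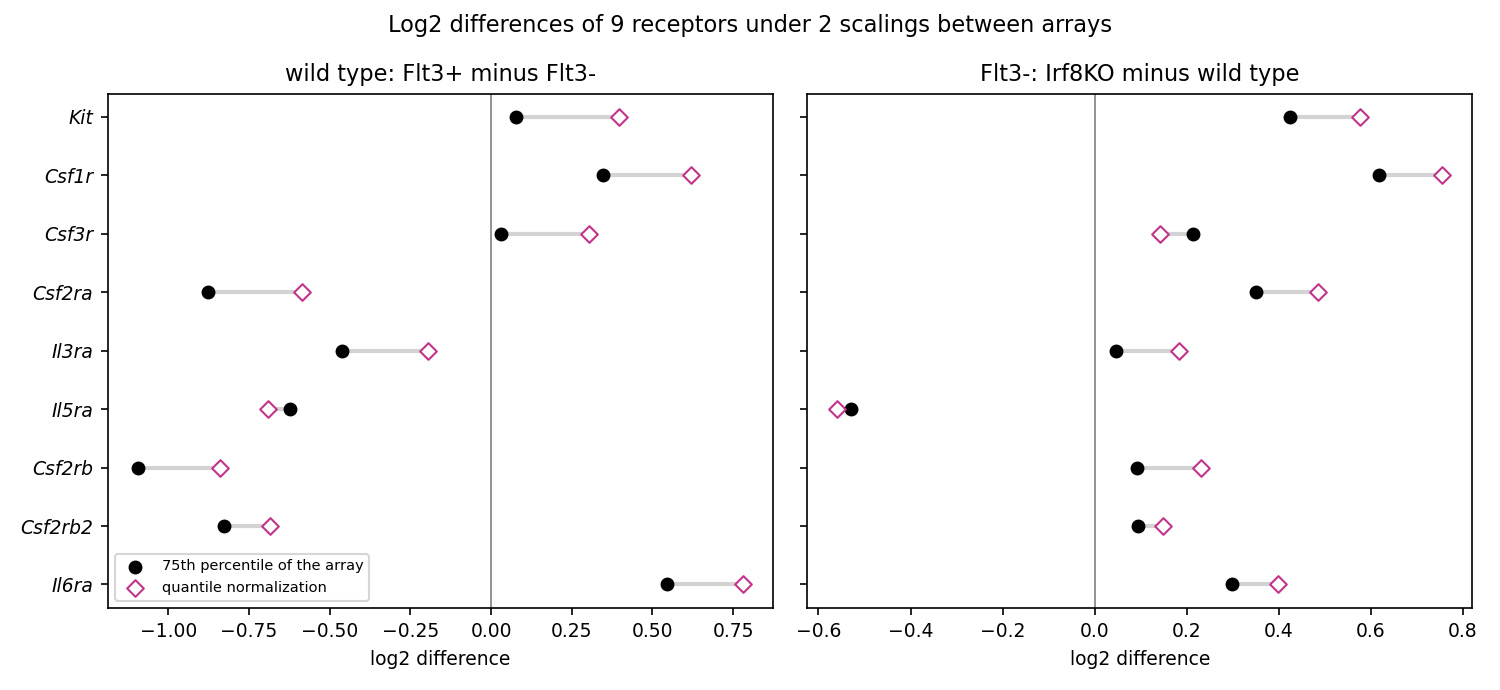
Log2 difference (horizontal axis) of the 9 receptor genes other than Flt3 under scaling to the 75th percentile of the array (filled) and under quantile normalization (open), between Flt3+ and Flt3- GPs of wild type (left) and between genotypes in Flt3- GPs (right). Every pair of points lies on 1 side of 0, and quantile normalization moves Kit to 0.40 and Csf3r to 0.30 in the left panel.

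The second question was how the receptors differ between genotypes within each sorted population. In Flt3+ GPs, 1 of the 10 receptors was higher on arrays labelled Irf8KO (Csf1r), 1 was lower (Il6ra) and 8 were not called, where 28.8% of all genes were called, 16.3% as higher and 12.5% as lower. The medians were 0.08 for the 10 genes and 0.04 for all genes. In Flt3- GPs, 5 receptors were higher on arrays labelled Irf8KO (Flt3, Csf1r, Kit, Csf2ra, Il6ra), 1 was lower (Il5ra) and 4 were not called (Csf3r, Il3ra, Csf2rb, Csf2rb2). Of all genes 43.5% were called there, 16.4% as higher and 27.1% as lower, and the medians were 0.26 and -0.03.

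Flt3 showed the largest genotype difference of the 10 genes. From the levels above it was 1.02 (SE 0.038, adjusted p = 7.87e-05), or 2.03-fold, higher in Flt3- GPs labelled Irf8KO than in wild-type Flt3- GPs, and its second probe gave 0.71 (adjusted p = 0.00216). In Flt3+ GPs the difference was 0.08 and not called (95% interval -0.01 to 0.18, adjusted p = 0.161). The Flt3 protein was the sort marker, so a genotype difference in Flt3 RNA cannot be told apart from one in gate or purity. Flt3 was the only one of the 10 to reach 2-fold between genotypes, where 4.24% of all genes in Flt3+ and 3.63% in Flt3- GPs were called with at least that size. The summed level of 7 lymphoid markers was 3.91 to 4.04 in wild-type Flt3- GPs and 3.97 to 4.26 in those labelled Irf8KO, with Ebf1, Il7r and Rag1 not above background in either. Cd3e, which was not called between these groups, made up 83.9 to 84.9% of that sum. That of 6 dendritic cell markers (of 9; Cd209a, Xcr1 and Batf3 were not tested) was 202 to 215 and 241 to 258, but Siglech alone made up 90.5 to 93.2% of it; Siglech was called higher (0.29, adjusted p = 0.0477) and Cd74 lower (-0.38, adjusted p = 0.0198). That of 6 markers of stem and multipotent progenitors was 20.9 to 21.1 and 17.2 to 17.4, with 3 called lower. The part of such cells in the Flt3 difference was not tested.

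The stem cell factor receptor Kit was 0.42 (SE 0.044, adjusted p = 0.00119), or 1.34-fold, higher in Flt3- GPs labelled Irf8KO, and differed by 0.02 in Flt3+ GPs (95% interval -0.09 to 0.13, adjusted p = 0.768). Csf1r was higher in both populations, by 0.62 (adjusted p = 0.000348) in Flt3- and by 0.28 (adjusted p = 0.00576) in Flt3+. All 3 Csf1r probes were called higher in Flt3- GPs, at 0.32 to 0.62, and 2 of 3 in Flt3+ GPs, at 0.14 to 0.37 over the 3. The summed level of the 6 monocyte and macrophage markers tested was 106 to 109 in Flt3+ and 111 to 112 in Flt3- GPs labelled Irf8KO, above the wild-type ranges given before; 3 rose and 2 fell in Flt3+, and 2 rose and 4 fell in Flt3-. F13a1 made up 82.1 to 82.9% and 90.2 to 90.6% of these sums. It rose by 1.52 in Flt3+ and 1.53 in Flt3-, so 1 gene carried most of the higher sum. Ccr2 rose too, from 0.91 and 0.96 to 3.08 and 3.16 in Flt3+. In Flt3- it went from 1.06 and 1.13 to 3.23 and 3.17. Cx3cr1 rose in Flt3+, from 1.62 and 1.73 to 3.16 and 3.29, but fell in Flt3-, from 0.65 and 0.65 to 0.14 and -0.05. Ly86, another marker of the list, fell, with differences of -8.46 and -8.08. F13a1, Ccr2, Cx3cr1 and Ly86 are named after their values were seen. Aif1 was not above background in either group labelled Irf8KO, Ly6c2 and Cd68 were not tested, and the part of such cells in the Csf1r difference was not tested.

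Csf2ra was 0.35 (SE 0.06, adjusted p = 0.00594) higher in Flt3- GPs labelled Irf8KO and differed by 0.09 in Flt3+ (95% interval -0.06 to 0.24, adjusted p = 0.306). Il3ra, Csf2rb and Csf2rb2 were not called between genotypes in either population. Their differences ran from 0.05 to 0.09 in Flt3- and from 0.07 to 0.14 in Flt3+, with 95% intervals that reached at most 0.285 (Csf2rb in Flt3+). In Flt3- GPs, Csf2rb (0.23, adjusted p = 0.0148) and Il3ra (0.18, adjusted p = 0.0102) were called as higher under quantile normalization.

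In Flt3- GPs Il5ra was the only receptor that fell on arrays labelled Irf8KO, by 0.53 (SE 0.063, adjusted p = 0.00183), or 1.44-fold. After normexp background correction the Il5ra value was -0.25 (adjusted p = 0.0297). In Flt3+ GPs the difference was -0.19 and not called (95% interval -0.34 to -0.03, adjusted p = 0.0789). Of the 8 eosinophil markers tested 5 fell in each population and 1 rose in Flt3+, and their summed level was lower on arrays labelled Irf8KO in Flt3- GPs (11.8 to 11.8 against 24.0 to 24.3). Of the 8 basophil and mast cell markers 7 fell in Flt3- and 5 in Flt3+ GPs. The part of these cells in the Il5ra difference was not tested.

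Il6ra went in opposite directions, with 0.30 (SE 0.056, adjusted p = 0.00823), or 1.23-fold, higher in Flt3- GPs labelled Irf8KO and -0.32 (adjusted p = 0.0108), or 1.25-fold lower, in Flt3+ GPs. The call in Flt3+ is lost without the Flt3+ replicate 1 labelled Irf8KO (-0.28, adjusted p = 0.0636), and that in Flt3- without the wild-type Flt3- replicate 1 (0.26, adjusted p = 0.0532). Il6st was higher on arrays labelled Irf8KO in both populations, by 1.09 in Flt3+ (adjusted p = 0.000176) and 0.85 in Flt3- (adjusted p = 0.000439). Csf3r differed by 0.21 in Flt3- (95% interval 0.04 to 0.39, adjusted p = 0.0554) and by 0.04 in Flt3+ (adjusted p = 0.677), neither called. The Flt3- value of Csf3r was called when only the groups compared were fitted (adjusted p = 0.0476), and without either wild-type Flt3+ array (adjusted p = 0.0228). Of 8 mature neutrophil markers 7 were tested. In both populations, where 16.3% (Flt3+) and 16.4% (Flt3-) of all genes were called higher, all 7 rose on arrays labelled Irf8KO. Their summed level was 8.20 to 8.29 and 14.3 to 14.8 in Flt3+ and Flt3- of wild type and 36.7 to 37.6 and 29.8 to 29.9 on arrays labelled Irf8KO, with Mmp8 not above background in wild-type Flt3- and Ly6g not tested.

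**Figure D4:**
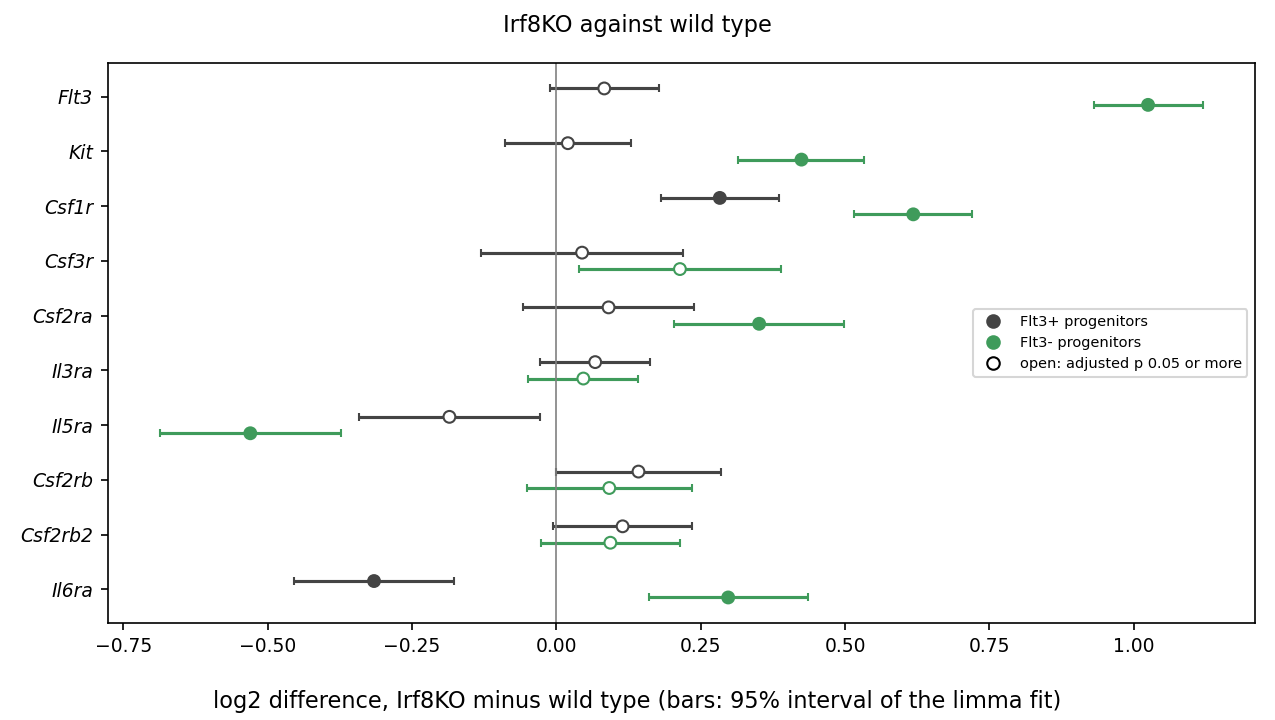
Difference in log2 level between arrays labelled Irf8KO and wild-type arrays for each receptor gene (horizontal axis, positive where Irf8KO is higher), in Flt3+ and in Flt3- GPs, with the 95% interval of the limma fit over 2 arrays per group; open points were not called. In Flt3- GPs Flt3 stands at 1.02 and Il5ra at -0.53, while Csf1r and Il6ra are the called genes in Flt3+ GPs.

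The genotype difference itself differed between the populations for 5 of the 10 receptors, as tested by the interaction (the genotype difference in Flt3+ minus that in Flt3-). It was called lower for 4 (Flt3, Il6ra, Kit, Csf1r) and higher for 1 (Il5ra), where 30.7% of all genes were called, 21.3% as higher and 9.45% as lower. The medians were -0.22 for the 10 genes and 0.07 for all genes. Flt3 was the sort marker, so its interaction cannot be told apart from gate or purity of the sorts. The interaction was -0.94 for Flt3 (SE 0.054, adjusted p = 0.000794), -0.61 for Il6ra (SE 0.079, adjusted p = 0.00465) and -0.40 for Kit (SE 0.062, adjusted p = 0.00777). For Csf1r it was -0.34 (SE 0.059, adjusted p = 0.0108), with -0.28 (adjusted p = 0.0355) and 0.05 (adjusted p = 0.799) from the other probes. For Csf1r the call is lost with the mean of the probes (-0.19, adjusted p = 0.0508) and without the wild-type Flt3- replicate 2 (-0.32, adjusted p = 0.051). For Il5ra it was 0.34 (SE 0.09, adjusted p = 0.035), and this call is lost without any 1 of 7 of the 8 arrays, all but wild-type Flt3+ replicate 1. The interaction of Csf2ra was -0.26 and not called (95% interval -0.47 to -0.05, adjusted p = 0.0656), but called under quantile normalization (-0.46, adjusted p = 0.0076), after normexp correction (-0.31, adjusted p = 0.0446) and without wild-type Flt3+ replicate 1 (-0.32, adjusted p = 0.0406). Quantile normalization also raised the size of the interactions of Kit (-0.65) and Csf1r (-0.55). Under it the share of interaction calls that were higher was 51.2% in place of 69.2%.

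**Figure D5:**
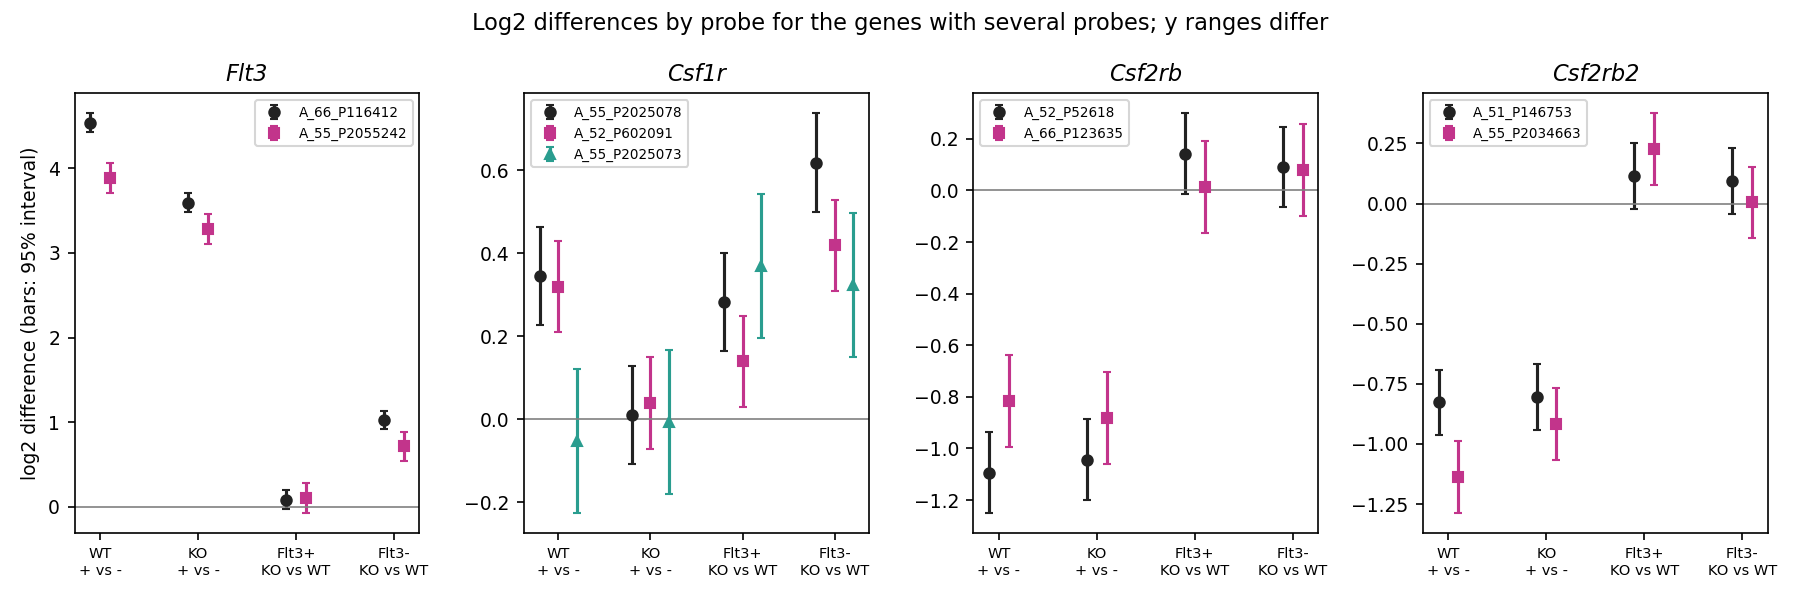
Log2 difference (vertical axis, range differs by gene) of each probe of Flt3, Csf1r, Csf2rb and Csf2rb2, the genes with several probes, between Flt3+ and Flt3- GPs in wild type (WT) and in cells labelled Irf8KO (KO), and between KO and WT in Flt3+ and in Flt3- GPs; bars are 95% intervals of the limma fit over all probes, with 2 arrays per group. The probes of Flt3, Csf2rb and Csf2rb2 lie on 1 side of 0 in both population comparisons, whereas 1 Csf1r probe stands at -0.05 in wild type and the one that stands for the gene at 0.35.

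Among the 10 genes the order of the groups followed a few patterns. Csf2ra, Il3ra, Csf2rb and Csf2rb2 shared 1 order, with Flt3- labelled Irf8KO highest, then wild-type Flt3-, then Flt3+ labelled Irf8KO, and wild-type Flt3+ lowest. In that order the arrays of the Flt3+ groups overlapped for Csf2ra, and the neighbouring groups of 1 population were not called apart for Il3ra, Csf2rb and Csf2rb2. Kit and Csf3r were also highest in Flt3- labelled Irf8KO, Csf1r and Flt3 in Flt3+ labelled Irf8KO, Il5ra in wild-type Flt3- and Il6ra in wild-type Flt3+. The groups labelled Irf8KO overlapped for Csf1r, the Flt3+ groups for Kit, and wild-type Flt3+ with Flt3- labelled Irf8KO for Il5ra. For Csf3r the Flt3+ groups overlapped, as did the wild-type groups, and no comparison was called in the main scaling. The Flt3+ groups were not called apart for Flt3 (0.08, adjusted p = 0.161 in limma).

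Of the 9 ligands of these receptors 4 had a probe above background in a group and were tested. In wild type 1 was higher in Flt3+ GPs (Flt3l, the Flt3 ligand, 0.40) and 1 lower (Csf1, the Csf1r ligand, -0.70), and in cells labelled Irf8KO 1 was lower (Csf1, -0.54). Between genotypes 1 was lower in Flt3+ (Flt3l, -0.31, adjusted p = 0.0252) and 0 were called in Flt3- GPs by limma, where 1 (Csf1, -0.22, adjusted p = 0.0561) had an unadjusted p under 0.05. Flt3l and Csf1 are named after their values were seen. The list medians were 0.34 and 0.12 between populations, in wild type and in cells labelled Irf8KO, and -0.17 and -0.11 between genotypes, in Flt3+ and Flt3-.

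Of 19 receptors of other haematopoietic cytokines, Il6st included, 17 were tested. In wild type 12 were higher and 4 lower in Flt3+ GPs (median 0.51), and in cells labelled Irf8KO 12 were higher and 2 lower (median 0.41). Of all genes 22.6% and 22% were called higher in these comparisons, and 39.1% and 23.6% lower. Il7r, the IL-7 receptor of lymphoid progenitors, was not above background in Flt3- GPs and was at least 34.2-fold higher in Flt3+ in wild type and at least 103-fold in cells labelled Irf8KO. These bounds set the bright mean against the lowest signal well above background, or the signal of the probe itself where higher. Lifr, the LIF receptor, was at least 7.19-fold and at least 15.1-fold higher, and Il10ra, the IL-10 receptor, rose by 2.31 and 1.14. Lymphoid markers, of which Il7r is one, moved with them: 5 of 7 rose in Flt3+ GPs of each genotype, and their summed level was 118 to 125 in Flt3+ against 3.91 to 4.04 in Flt3- GPs of wild type and 231 to 252 against 3.97 to 4.26 in cells labelled Irf8KO. In Flt3+ GPs Dntt made up 95 to 96.1% of that sum. The part of such cells in the receptor values was not tested. Between genotypes 5 receptors were higher and 4 lower in Flt3+ (median -0.0042), among them Epor, the erythropoietin receptor, at -1.87, Il7r at 1.69 and Ifngr1, a chain of the interferon gamma receptor, at 1.17. In Flt3- GPs 7 were higher and 2 lower (median 0.11), with Epor at -2.09 and Il10ra at 1.04. The summed level of 8 erythroid and megakaryocyte markers, of which Epor is one, was 22.7 to 23.1 and 13.8 to 13.8 in Flt3+ and Flt3- of wild type and 1.82 to 1.85 and 2.94 to 2.97 on arrays labelled Irf8KO.

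To set beside the list counts here and above, the shares of all genes called were 61.8% and 45.7% between populations (wild type, then labelled Irf8KO). Between genotypes they were 28.8% in Flt3+ and 43.5% in Flt3-, and in the interaction 30.7%. The 26 genes of the signal relay below the receptors were all tested. In wild type 7 were higher and 9 lower in Flt3+ GPs (median 0.02), in cells labelled Irf8KO 5 and 6 (median -0.0050). Between genotypes 4 were higher and 3 lower in Flt3+ (median 0.04) and 6 and 2 in Flt3- (median 0.08). Of 16 brakes on receptor signalling 15 were tested, with 7 higher and 4 lower in wild-type Flt3+ GPs (median 0.16) and 6 and 5 in those labelled Irf8KO (median 0.17). Sla2, an adaptor that dampens receptor signals, rose by 2.95 and 2.67 in Flt3+ GPs, and Dok2, a docking protein that restrains kinase signalling, by 1.79 and 2.28. Dok3, of the same family, fell by 1.33 in wild type, and Spry1, an inhibitor of growth factor signals, rose by 1.40 in cells labelled Irf8KO. Between genotypes 2 were higher and 1 lower in Flt3+ (median 0.06), and 4 and 2 in Flt3- (median 0.0035). In the interaction the counts of higher and lower genes were 3 and 4 for the other cytokine receptors, 2 and 4 for the relay, 3 and 1 for the brakes and, by limma, 0 and 0 for the ligands (1 at an unadjusted p under 0.05), with medians of 0.13, 0.03, -0.02 and -0.07.

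The genes whose pattern over the 8 arrays was most like that of a receptor were found by the root mean square difference of the log2 levels after centring each gene. No gene came within 0.1 of Flt3, whose nearest were Nlrp1b at 0.15 and Depp1 at 0.32. Csf2ra had 11 genes within 0.1, the nearest Fut4 at 0.066 and Ero1b at 0.069, and Csf2rb had 30, the nearest Arel1 at 0.050 and Pfkfb3 at 0.051. Csf2rb2 had 80 (Zfyve27 at 0.040 and Uhrf1bp1l at 0.041), Il5ra 51 (Alg3 at 0.050 and Mbnl3 at 0.061) and Il3ra 578 (Mia3 at 0.021 and Snx12 at 0.027). Kit had 206 (Mxd1 at 0.023 and Chkb at 0.039), Csf1r 49 (N4bp2l1 at 0.027 and Ubl3 at 0.042), Il6ra 70 (Dnajb2 at 0.039 and Zfp873 at 0.055) and Csf3r 702 (Gm15348 at 0.018 and Dnajc5 at 0.029). The measure is absolute, so a gene that varies little over the arrays has more genes within 0.1: the root mean square of the centred levels was 2.07 for Flt3 and 0.097 for Csf3r.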

How the data were processed

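One-colour (Cy3) Agilent arrays were used for the 8 samples. Per the file headers, the deposited spot intensities come from Agilent Feature Extraction 10.7.3.1 (protocol GE1_107_Sep09) and differ in overall level between arrays. Flags per spot (0 or 1) mark signals well above background, outliers and controls, as deposited. From its values, the deposited series table holds these intensities, linear and not centred, multiplied by 1 factor per array (0.672 to 1.33). No source used here says how it was made. Its column medians were 29.9, 28.7, 26.9, 28.0, 28.6, 27.1, 27.5 and 27.6.

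After control and outlier spots were dropped, spots were averaged by probe and each value is log2 of the deposited processed intensity minus the array's 75th percentile over 55681 probes. Probes had to be well above background in both samples of some group. RefSeq accessions (table of GRCm38.p6) named 26762 probes, and the brightest probe stood for a gene. In limma 3.58.1 (R 4.3.3) the 4 groups shared 1 estimate of the spread (4 residual degrees of freedom), and p-values were adjusted by Benjamini-Hochberg in each of the 5 comparisons. A separate fit over all kept probes gave values by probe. The fit was tested on simulated data. All 10 receptor genes are named, with the 2 genes most like each and those pathway genes called at 2-fold or more, at most 4 per list and comparison; some such genes are not reported here. The genes, lists and tests were chosen with earlier results of these data known. Alternatives were normexp (on median signals), quantile normalization, the deposited series table, no filter, other uses of the probes, only the groups compared, the experiment as a block and each array left out.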

Additional observations from a re-analysis of the deposited data

Results flagged for a closer look

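The genotype difference (arrays labelled Irf8KO minus wild type) differed between Flt3+ and Flt3- GPs for 5 of the 10 receptor genes, by the interaction in limma, where 30.7% of all genes were called; with 1 array left out the count of receptor genes ran from 3 to 6. Flt3 was the sort marker, so its value cannot be told apart from gate or purity of the sorts. For Flt3 the difference in Flt3+ minus that in Flt3- was -0.94 (adjusted p = 0.000794). For Il6ra it was -0.61 (adjusted p = 0.00465), with opposite signs in the populations. For Kit it was -0.40 (adjusted p = 0.00777). For Csf1r it was -0.34 (adjusted p = 0.0108), where 1 of 3 probes gave 0.05 and the call is lost without wild-type Flt3- replicate 2 (adjusted p = 0.051). For Il5ra it was 0.34 (adjusted p = 0.035), a call that is lost when any 1 of 7 of the 8 arrays is left out (adjusted p from 0.0503 to 0.11).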

How the results depend on the processing

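The 50 values (10 receptor genes in 5 comparisons) were recomputed under 8 other settings with all arrays (the interaction not with only the groups compared) and with each array left out. No called value changed sign, but several settings could not change one. The deposited series table, no filter, every probe on its own, only the groups compared and the block kept the same probe and group means. So did leaving out an array outside the comparison. Another Csf1r probe gave -0.05 in wild type, where the called value was 0.35, and 0.05 in the interaction, where it was -0.34. Of values that were not called, 21 changed sign. With normexp these were, between genotypes in Flt3+, Csf2ra -0.013, Csf3r -0.030, Kit -0.040 and Il5ra 0.011, and in Flt3- Il3ra -0.026. Under quantile normalization they were, between genotypes in Flt3+, Csf3r -0.10, Flt3 -0.031 and Kit -0.077. In the interaction they were Csf2rb -0.15, Csf2rb2 -0.074 and Il3ra -0.17, and between populations labelled Irf8KO Csf3r 0.058 and Il6ra 0.0016. With the mean of the probes the interaction of Csf2rb was -0.0084. With an array left out, Csf1r between populations labelled Irf8KO ran from -0.018 to 0.039, Csf3r from -0.059 to 0.122 between wild-type populations and from -0.046 to 0.135 between genotypes in Flt3+, and the interactions of Csf2rb2 from -0.017 to 0.060 and of Il3ra from -0.0013 to 0.042. The cause was not tested.

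The interaction of Il5ra was not called with every probe on its own (adjusted p = 0.0628), with no filter (0.0834) or with normexp (0.113). All-gene counts moved by over 1.5 times with every probe on its own, which counts probes (15464 and 10807 between populations of wild type and of cells labelled Irf8KO, 10456 between genotypes in Flt3-), with no filter (2654 between genotypes in Flt3+ and 2695 in the interaction) and with only the groups compared (2653 in Flt3+). With 1 array left out, called genes ran from 7167 to 8534 and from 4926 to 6805 between populations (wild type, then labelled Irf8KO), from 1992 to 3653 and from 4042 to 6414 between genotypes (Flt3+, then Flt3-), and from 2503 to 4385 in the interaction. Called receptor genes ran, in the same order, from 8 to 8, 6 to 7, 1 to 2, 5 to 7 and 3 to 6, with 1 between genotypes in Flt3+ without Flt3+ replicate 1 labelled Irf8KO and 3 in the interaction without wild-type Flt3- replicate 2. The arrays that moved a count by over 1.5 times were, between genotypes in Flt3+, replicates 1 (2180) and 2 (1992) of Flt3+ labelled Irf8KO; in Flt3- wild-type Flt3- replicate 2 (4042); and in the interaction Flt3+ labelled Irf8KO replicate 2 (2503) and wild-type Flt3- replicates 1 (2555) and 2 (2527).

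Samples shared only an experiment number: the differences between experiments correlated between groups at -0.02 to 0.10. With the replicate block 8, 7, 3, 7 and 5 receptor genes were called, in the same order, and 8776, 6546, 3988, 6200 and 4392 genes in all; Csf3r in Flt3- (adjusted p = 0.046) and Il5ra in Flt3+ (adjusted p = 0.0256) became called between genotypes. A slide or scan block could not be run, since there was 1 slide and 1 scan.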
